A study of Mus musculus with 4 samples.

Results

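The response of wild-type mouse macrophages to interleukin-4 (IL-4) was read from 2 of the 4 arrays of the study, the BALB/c array with IL-4 and the BALB/c array in medium. All genes that the array names were compared: 19938 genes, each represented by the probeset with the highest mean over the 4 arrays among probesets with exactly 1 gene symbol. The values are log2 signals made by RMA, and a difference is always IL-4 minus medium in log2 units, so that 1 stands for a 2-fold change. Bone marrow cells had been grown for 7 days with 10% supernatant of L929 fibroblasts, a source of the macrophage growth factor M-CSF, then replated, kept for 24 h in medium or with IL-4, and sorted for the macrophage surface protein F4/80 before RNA was taken. The dose of IL-4 is 10 µg/mL in the sample records and 10 mg/mL in the series text, and the unit is not settled by them. The other pair of arrays held macrophages of 4get/Stat6-/- mice, cultured in the same ways. These mice lack the transcription factor STAT6, and 4get marks a reporter allele of the Il4 gene. From each RNA, 200 ng was put on 1 whole-transcript array. The number of mice behind an array, and whether mice were pooled, is not given in the sources used here. With 1 array per group there is no replicate check and no test, and the precision of every value is limited by the number of arrays.

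A gene is said to have risen or fallen where its difference was at least 1 in size and its higher signal reached a floor of 2.52, the median of all single-gene probesets over the 4 arrays. Where the lower signal was under that floor, the fold is a lower bound, computed against the floor. Of the 19938 genes, 10282 reached the floor on at least 1 wild-type array and could have passed this rule. The others give no fold. Olfactory receptor genes, which served as a gauge of background, differed between both arrays with an SD of 0.21 over 1027 genes, and 0 of the 16 that reached the floor passed the rule. Of 8 genes used as a gauge of RNA quality, 0 passed, with a median of -0.05.

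IL-4 is a cytokine of allergy and of the defence against worms. Its receptor activates the kinases JAK1 and JAK3 and through them STAT6, which binds palindromes of TTC and GAA in promoters and enhancers, and macrophages exposed to it take up the alternatively activated state. Macrophages in this state are known for arginase, lectins and chemokines of tissue repair and for fuelling themselves by mitochondrial respiration, whereas macrophages exposed to interferons or bacterial products lean on glycolysis. The lists below follow that background, from the cell's energy and lipid metabolism to its receptors, signals and secreted proteins.

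Promoter windows of the genes with the largest differences whose window held a motif are given first, because the share of windows with a match differed between genes that fell and genes that did not. Each window runs from 250 bases before to 50 bases after a RefSeq transcription start (GRCm38.p6), is written 5′ to 3′ along the gene, and has the match in capitals. In 4 genes that rose, the capitals mark the STAT6-type palindrome TTCNNNNGAA. Retnla encodes a secreted resistin-like protein, Pdcd1lg2 an inhibitory ligand for T cells, Tmem26 a membrane protein and Itgax the integrin chain CD11c.
Retnla, chr16:48842359-48842658, plus strand: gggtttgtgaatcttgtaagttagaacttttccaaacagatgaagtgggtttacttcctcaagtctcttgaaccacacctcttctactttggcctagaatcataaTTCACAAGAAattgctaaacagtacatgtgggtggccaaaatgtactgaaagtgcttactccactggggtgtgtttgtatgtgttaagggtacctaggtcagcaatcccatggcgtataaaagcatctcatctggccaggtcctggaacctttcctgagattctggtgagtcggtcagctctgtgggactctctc
Pdcd1lg2, chr19:29410669-29410968, plus strand: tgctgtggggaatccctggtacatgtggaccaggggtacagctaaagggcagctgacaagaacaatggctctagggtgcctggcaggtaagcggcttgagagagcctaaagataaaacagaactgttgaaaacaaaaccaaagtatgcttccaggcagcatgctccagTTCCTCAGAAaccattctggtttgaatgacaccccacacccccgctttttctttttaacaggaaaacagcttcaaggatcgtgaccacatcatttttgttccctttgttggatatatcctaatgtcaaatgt
Tmem26, chr10:68723496-68723795, plus strand: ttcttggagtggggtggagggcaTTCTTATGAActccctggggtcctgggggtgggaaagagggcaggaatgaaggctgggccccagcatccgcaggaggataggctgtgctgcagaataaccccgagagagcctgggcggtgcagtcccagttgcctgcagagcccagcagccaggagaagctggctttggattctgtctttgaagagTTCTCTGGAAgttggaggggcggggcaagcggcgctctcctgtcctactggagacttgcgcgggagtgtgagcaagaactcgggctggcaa
Itgax, chr7:128129300-128129599, plus strand: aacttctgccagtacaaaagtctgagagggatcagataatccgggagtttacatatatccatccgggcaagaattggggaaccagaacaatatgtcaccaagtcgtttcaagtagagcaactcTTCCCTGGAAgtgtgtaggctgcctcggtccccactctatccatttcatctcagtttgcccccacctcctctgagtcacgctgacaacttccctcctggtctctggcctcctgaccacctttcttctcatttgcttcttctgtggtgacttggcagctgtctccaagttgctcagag
In 4 interferon-stimulated genes that fell, the capitals mark the ISRE-type motif GAAANNGAAA or its reverse complement TTTCNNTTTC, the kind of element bound by interferon regulatory factors. Ifit3 and Ifit3b are copies of an antiviral gene, which the probes may not tell apart, Rsad2 encodes the antiviral enzyme viperin, and Gbp7 a guanylate-binding GTPase.
Ifit3, chr19:34583279-34583578, plus strand: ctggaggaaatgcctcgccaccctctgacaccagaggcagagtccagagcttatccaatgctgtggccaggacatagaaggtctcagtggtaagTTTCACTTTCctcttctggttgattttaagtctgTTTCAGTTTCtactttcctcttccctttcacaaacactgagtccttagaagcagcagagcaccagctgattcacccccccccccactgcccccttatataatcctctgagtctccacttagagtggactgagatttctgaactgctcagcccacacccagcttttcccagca
Ifit3b, chr19:34607707-34608006, plus strand: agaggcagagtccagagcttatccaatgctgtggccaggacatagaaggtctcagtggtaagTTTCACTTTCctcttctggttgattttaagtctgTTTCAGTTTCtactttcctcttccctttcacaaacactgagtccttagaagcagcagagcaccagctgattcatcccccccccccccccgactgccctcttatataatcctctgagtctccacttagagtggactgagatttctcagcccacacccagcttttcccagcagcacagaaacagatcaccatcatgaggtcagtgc
Rsad2, chr12:26456403-26456702, minus strand: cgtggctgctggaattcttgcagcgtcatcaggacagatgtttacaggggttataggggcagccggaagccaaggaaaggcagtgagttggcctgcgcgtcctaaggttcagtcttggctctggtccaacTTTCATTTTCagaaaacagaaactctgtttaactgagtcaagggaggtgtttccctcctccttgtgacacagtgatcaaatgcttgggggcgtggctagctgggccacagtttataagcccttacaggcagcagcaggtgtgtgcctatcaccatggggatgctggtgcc
Gbp7, chr3:142530086-142530385, plus strand: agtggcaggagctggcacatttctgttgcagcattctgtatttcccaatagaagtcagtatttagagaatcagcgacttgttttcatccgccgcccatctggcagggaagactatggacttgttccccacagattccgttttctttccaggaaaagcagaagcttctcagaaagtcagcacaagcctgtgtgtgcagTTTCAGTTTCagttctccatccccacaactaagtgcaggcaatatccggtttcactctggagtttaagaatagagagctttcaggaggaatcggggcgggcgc
In Hmgcs1, an enzyme of cholesterol synthesis that rose, the capitals mark a sterol element, TCACNCCAC.
Hmgcs1, chr13:119690101-119690400, plus strand: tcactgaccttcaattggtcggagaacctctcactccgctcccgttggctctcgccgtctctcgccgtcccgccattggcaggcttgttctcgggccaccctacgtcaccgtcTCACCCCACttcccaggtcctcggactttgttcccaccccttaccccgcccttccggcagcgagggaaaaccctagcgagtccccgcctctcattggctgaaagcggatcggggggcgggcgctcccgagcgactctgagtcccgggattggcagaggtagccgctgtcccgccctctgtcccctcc

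Only these windows were searched, so that every match lies near a start by construction. The first match begins 145 bases before the start in Retnla, 82 in Pdcd1lg2, 127 in Itgax and 53 in Gbp7, and Tmem26 has a pair of matches, 227 and 41 bases before it. In Ifit3, Ifit3b, Rsad2 and Hmgcs1 the first match begins 156, 188, 120 and 137 bases before the start. Retnla went from 1.20 in medium to 10.33 with IL-4, Pdcd1lg2 from 1.63 to 6.39, Tmem26 from 4.04 to 6.90 and Itgax from 6.99 to 9.83. The 4 antiviral genes went the other way, Ifit3 from 7.64 to 3.80, Ifit3b from 4.00 to 1.44, Rsad2 from 6.80 to 4.34 and Gbp7 from 6.85 to 4.41. Hmgcs1 went from 5.62 to 7.03.

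Over all genes, decreases outnumbered increases. Of the 10282 genes that could pass, 304 rose (2.96%) and 697 fell (6.78%), 1001 in all (9.74%), and the median difference was -0.11. The middle 90% of differences lay between -1.12 and 0.80, and both arrays had a Pearson correlation of 0.929 across these genes, which are not replicates. Of the genes that rose, 244 were above the floor on both arrays and 60 started under it. Of those that fell, 644 stayed above it and 53 ended under it. Genes that rose had a median signal of 4.02 in medium and 5.66 with IL-4, and genes that fell 5.85 and 4.42. Increases of at least 3 were the more frequent, 21 against 12 decreases of that size, while at 2 or more there were 46 against 83. The split depends on how the arrays are scaled, since the deposited probeset signals of the arrays still differed in distribution after RMA. Quantile normalization applied again, to all probesets of the 4 arrays, gave 403 higher and 488 lower genes (45.2% of calls higher against 30.4%). It moved the median difference from -0.11 to 0.02. Removal of the trend with intensity gave 418 and 490 (46.0%). Under that quantile normalization all 304 increases and 486 of the 697 decreases were still called, and with the intensity trend removed 295 and 478 were.

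**Figure D1:**
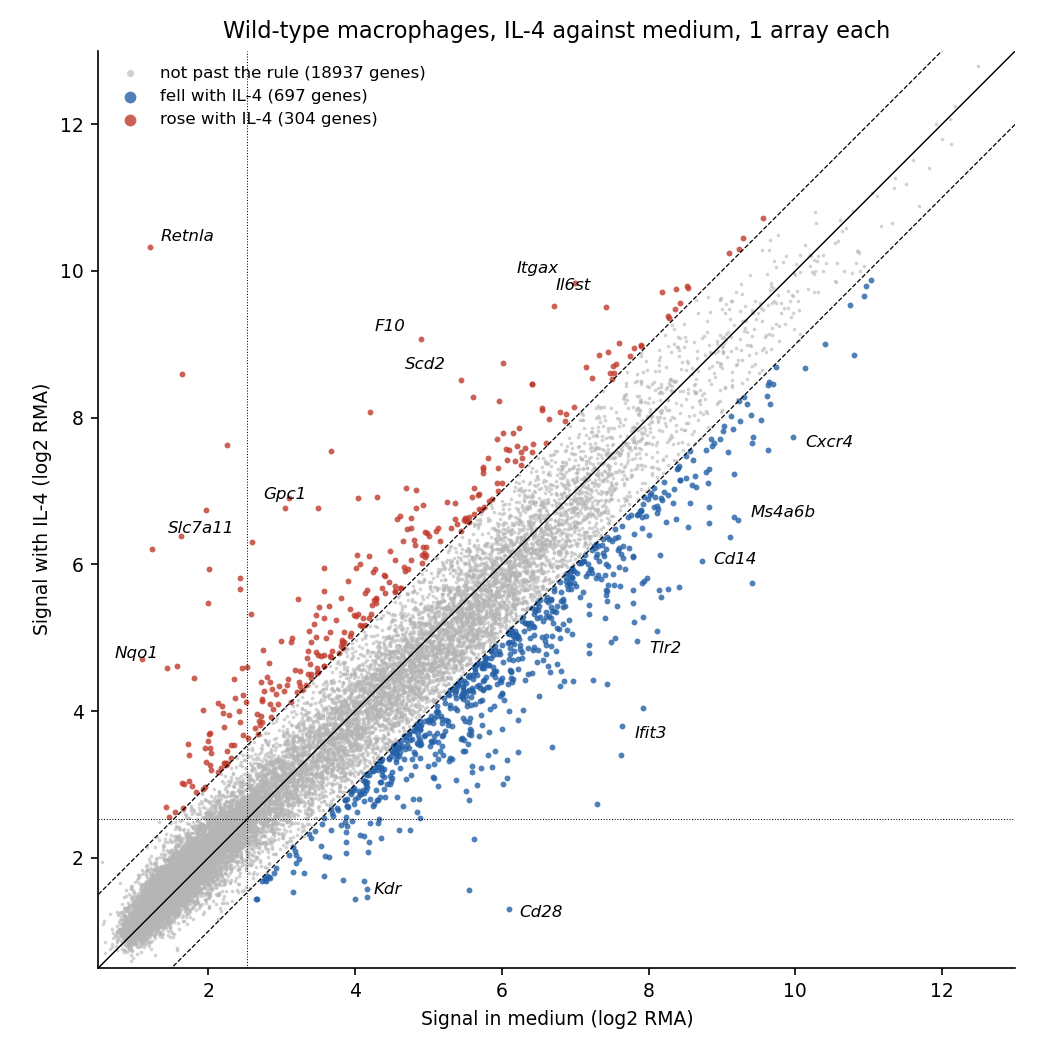
Signal of each of 19938 genes with IL-4 (vertical axis, log2 RMA) against medium (horizontal axis, log2 RMA), 1 array each. Red points are the 304 genes that rose and blue points the 697 that fell; dashed lines mark a difference of 1, dotted lines the floor of 2.52. Retnla stands alone at the upper left, from 1.20 to 10.33, and Cd28 lies lowest among the labelled genes that fell, from 6.10 to 1.31.

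The same 304 and 697 genes had median differences of 1.31 and -1.28 in wild type, and of 0.14 and -0.20 in Stat6-/- cells. There, 25 of 10410 genes rose (0.24%) and 12 fell (0.115%), 37 in all (0.355%). Stat6 itself had a signal of 7.34 in medium and 6.68 with IL-4 in wild type, and of 4.54 and 4.25 in Stat6-/- cells. The difference between both genotypes' responses has no test with 1 array per group. The sign in Stat6-/- cells was the same for 190 of the 304 and 550 of the 697, and 6 and 4 of them passed the rule there in the same direction. The Stat6-/- median over all genes was itself -0.04, and the share of all genes with the same sign is not given.

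The macrophage label was checked against marker genes of macrophages and of other cell types. All 14 macrophage markers on the array reached the floor, led by the lysozyme gene Lyz2 (11.82 in medium, 11.40 with IL-4), the M-CSF receptor Csf1r (10.87 and 10.25) and Cd68 (10.69 and 10.58). Of them, 5 fell, Cd14, Fcgr1, Mertk, Aif1 and Adgre1, which encodes the sorted protein F4/80 (10.75 and 9.54). Their summed linear signal was 16404 in medium and 11099 with IL-4. Basophil and mast cell markers were under the floor in 8 of 8 cases and erythroid markers in 3 of 3, and dendritic cell and NK cell lists had 1 marker each above it. Of 7 B cell and 5 eosinophil markers, 2 each reached it and did not pass the rule. Of 10 neutrophil markers, 2 reached it, the collagenase Mmp8, which rose (5.01 and 6.39), and Ngp, which fell (2.79 and 1.76). Ngp ended under the floor, and against the floor its fall is less than 2-fold. Of 8 fibroblast markers, 5 reached it, none of them above 3.55, and Postn rose (1.72 and 3.55). The part of these markers in the results was not tested. Of 9 T cell markers, Cd28 (6.10 and 1.31) and Cd4 (5.59 and 3.17) reached the floor and both fell, while the defining chains Cd3e (2.44 and 2.52), Cd3d (1.27 and 1.34) and Cd3g (1.47 and 1.69) stayed under it. In such bulk samples, fewer cells of a type and less RNA per cell cannot be told apart.

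Genes of oxidative phosphorylation, the machinery by which mitochondria make ATP, were shifted upward. Of 98 respiratory chain and ATP synthase genes on the array, 90 reached the floor, and 20 of these rose while 0 fell. The median was 0.70, against -0.11 over all genes, and 82 of the 90 differences were above 0. In Stat6-/- cells the median of the same genes was 0.22, with 2 higher and 0 lower. Their differences in wild type ran from -0.73 for the assembly factor Ndufaf1 to 1.77 for Ndufs5.

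In complex I, which takes electrons from NADH, 5 of 40 rose. Ndufs5 went from 4.71 in medium to 6.48 with IL-4 (3.42-fold), Ndufb10 from 3.35 to 4.82, Ndufb8 from 5.12 to 6.50, Ndufb9 from 4.61 to 5.68 and Ndufb6 from 5.83 to 6.86. These are accessory subunits, which stabilise the complex, while the catalytic core subunits Ndufv1 (5.73 and 6.42), Ndufs1 (6.39 and 6.55) and Ndufs7 (6.32 and 7.01), chosen after their values were seen, did not pass. In complexes II and III, which pass electrons from succinate and ubiquinol to cytochrome c, 5 of 14 rose and all 14 differences were above 0. Uqcr10 went from 4.55 to 6.06, Uqcr11 from 4.16 to 5.65, the Rieske iron-sulphur protein Uqcrfs1 from 4.28 to 5.53, Uqcrq from 4.54 to 5.62 and cytochrome c1, Cyc1, from 6.60 to 7.65. All 5 belong to complex III.

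In complex IV, where oxygen is reduced, 4 of 19 rose. Cox6b1 went from 7.23 to 8.54, Cox7b from 5.69 to 6.95, Cox6a1 from 6.98 to 8.14 and Cox4i1 from 7.53 to 8.60. In ATP synthase, all 17 differences were above 0 and 6 genes rose. Atp5e, a subunit of the central stalk, went from 5.74 to 7.24, and Atp5g3 and Atp5g1, which encode the proton-carrying ring, went from 7.44 to 8.89 and from 4.96 to 6.13. The small membrane subunits Atp5k (4.99 and 6.43), Atp5l (6.07 and 7.42) and Atp5j2 (7.50 and 8.53) rose too. A second probeset of Uqcr11 went from 4.35 to 5.72, one of Atp5l from 6.11 to 7.57 and one of Cox7b from 2.93 to 4.28. In these 3 genes the probesets gave like differences, but they are not all such pairs. In Cox7a2l, which did not pass, the probesets had differences of 0.12 and -0.32. Ppargc1b, a coactivator of mitochondrial genes, went from 3.48 to 4.52. Timm8a1, a chaperone of mitochondrial import, went from 2.36 to 4.18 (at least 3.15-fold), and Chchd10, a protein of the mitochondrial intermembrane space, from 2.48 to 4.22 (at least 3.24-fold).

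**Figure D2:**
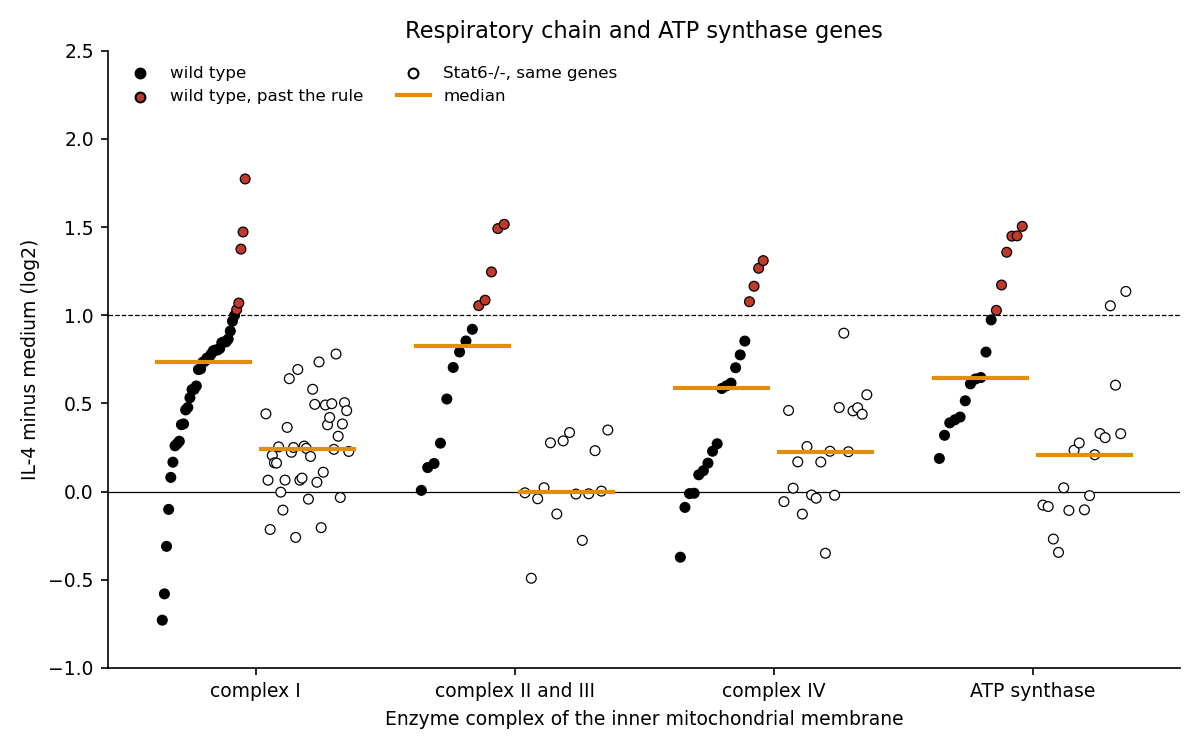
Differences between IL-4 and medium (vertical axis, log2) of the 90 respiratory chain and ATP synthase genes above the floor, by enzyme complex (horizontal axis). Filled points are wild type, red where the gene rose, open points the same genes in Stat6-/- cells, orange bars the medians, and the dashed line a difference of 1. Wild-type medians lie between 0.58 for complex IV and 0.82 for complexes II and III.

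Short genes moved upward more often than long ones on these arrays, and genes of the respiratory chain are short. Over 10262 genes with a known span, split into 4 bins of about equal size, the median difference was 0.10 for the shortest, -0.08 and -0.19 for the bins between, and -0.30 for the longest. In Stat6-/- cells these medians were 0.04, -0.02, -0.08 and -0.11. The median span was 7.37 kb for the respiratory chain genes and 21.6 kb for all. With trends in intensity and gene span removed, the respiratory chain list kept a median of 0.75, with 23 higher and 0 lower. Over all the alternatives its median ran from 0.63 to 0.87.

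Other parts of the protein-making and protein-degrading machinery had smaller positive medians. Of 77 mitochondrial ribosome proteins, 1 rose (1.30%, against 2.96% over all genes), Mrps28 (3.53 and 4.75). The list median was 0.39, and 66 differences were above 0. With quantile normalization applied again 8 rose, and the share that rose over all genes was then 3.89%. Of 57 ribosome biogenesis factors, 5 rose and 0 fell, with a median of 0.29: the nucleolar methyltransferase Rrp8 (5.26 and 6.84), Bysl (2.73 and 4.13), Rrp12 (2.67 and 3.96), Nop16 (4.96 and 6.24) and Utp18 (2.71 and 3.82). Of 57 cytosolic ribosome proteins, Rps19 (6.21 and 7.62) and Rps27l rose (3.51%, near the 2.96% over all genes) and Rpl30 fell. The list median of 0.31 stood beside one of 0.26 in Stat6-/- cells. Of 48 proteasome genes, 3 rose (6.25%, against 2.96% over all genes), among them the catalytic subunits Psmb5 (5.59 and 6.91) and Psmb10 (6.28 and 7.45). Of 19 aminoacyl-tRNA synthetases, which charge tRNAs with amino acids, 0 rose and 0 fell. The translation factor Eif5a went from 8.52 to 9.80, while its second probeset, at 6.36 and 7.08, did not pass.

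In lipid metabolism, increases were mostly of genes of synthesis. In fatty acid synthesis, 5 of 16 genes rose and 0 fell, and the median was 0.56 (-0.22 in Stat6-/- cells). The desaturase Scd2, which makes monounsaturated fatty acids, went from 5.45 to 8.52, an 8.41-fold rise. The desaturase genes Fads2 and Fads3 went from 4.83 to 6.77 and from 2.41 to 4.00 (at least 2.78-fold). Acaca and Fasn, which make malonyl-CoA and extend it to palmitate, went from 4.14 to 5.62 and from 3.93 to 5.40. Of 18 cholesterol synthesis enzymes, 10 rose and 0 fell, with a median of 1.06 (-0.12 in Stat6-/- cells), and Srebf2, the factor that drives them, went from 6.27 to 7.35. Mylip, a ligase that degrades the LDL receptor, fell by 1.90. Of 13 genes of cholesterol uptake, efflux and storage, 1 fell, Cyp27a1, the sterol 27-hydroxylase (by 1.93), a share of 7.69% near the 6.78% over all genes. The cholesterol exporter Abca1, at 8.87 and 7.87, did not quite pass the rule. Of 19 genes of fatty acid uptake and storage, 2 fell, the lipid phosphatase Lpin2 by 1.63 and the lipid droplet protein Plin2 by 1.18. Of 21 genes of fatty acid oxidation, the coactivator Ppargc1b rose (3.48 and 4.52) and Cpt1a, which admits fatty acids to mitochondria, fell (7.32 and 6.04). That is 4.76% each way, against 2.96% and 6.78% over all genes.

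In sugar metabolism, the share that rose was highest in the pentose phosphate route, which is a small list. Of 6 pentose phosphate genes, 3 rose, the transketolase Tkt (6.05 and 7.57), the lactonase Pgls (4.26 and 5.51) and the transaldolase Taldo1 (7.11 with IL-4, a difference of 1.12), with a median of 0.76. Of 25 glycolysis genes, 1 rose and 3 fell (4% and 12%, against 2.96% and 6.78% over all genes). The phosphofructokinase Pfkp rose. Pfkfb3, which makes the activator of that enzyme, fell, as did the monocarboxylate transporters Slc16a7 (6.55 and 5.01) and Slc16a3 (6.80 and 5.76). Of 32 genes of the citrate cycle and pyruvate entry, 2 rose and 2 fell (6.25% each, against 2.96% and 6.78% over all genes). Malate dehydrogenase Mdh2 (7.56 and 8.73) and the isocitrate dehydrogenase subunit Idh3a (5.48 and 6.60) rose. Suclg2, the GTP-forming subunit of succinyl-CoA ligase, went from 5.08 to 3.09, and its second probeset from 4.71 to 2.86. Pdk2, a kinase that shuts pyruvate dehydrogenase, went from 4.48 to 3.38.

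**Figure D3:**
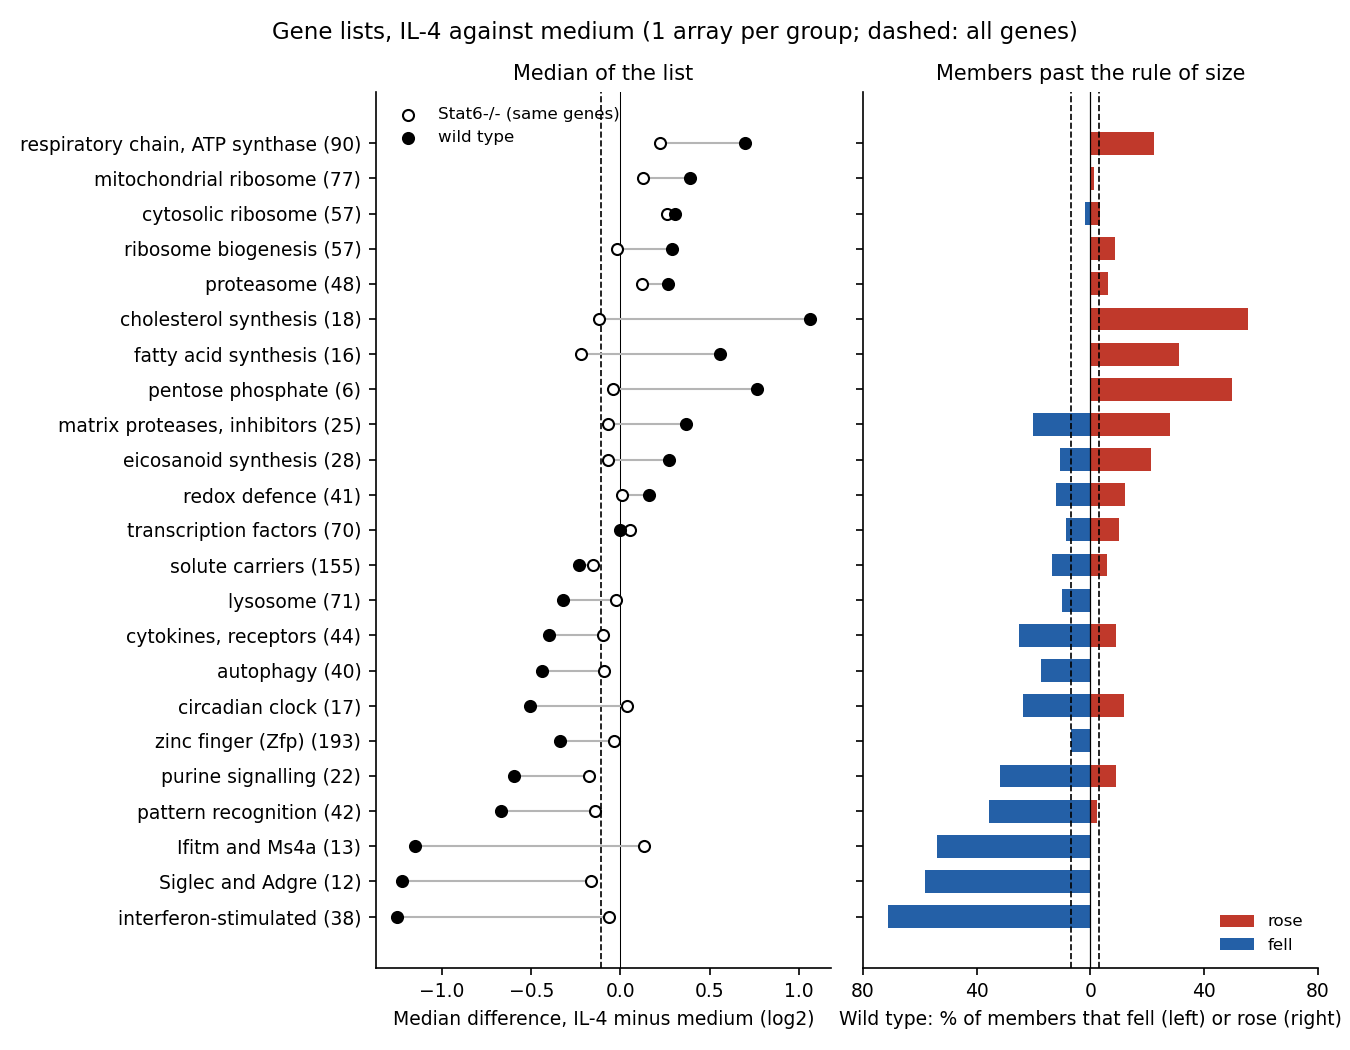
Left, median difference between IL-4 and medium (horizontal axis, log2) of 23 gene lists, filled for wild type and open for the same genes in Stat6-/- cells; the number of genes above the floor stands after each name. Right, the percentage of those genes that fell (blue, to the left) or rose (red, to the right) in wild type; dashed lines are the values over all genes (-0.11, 6.78% and 2.96%). Cholesterol synthesis has the highest median, 1.06, and interferon-stimulated genes the lowest, -1.25.

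Defence against oxidants changed in both directions, 5 up and 5 down of 41 (12.2% each way, against 2.96% and 6.78% over all genes). The cystine importer Slc7a11 went from 2.59 to 6.31, a 13.2-fold rise. It supplies glutathione, whose synthesis is limited by the enzyme that Gclm helps to form (5.74 and 7.29). Nqo1, a quinone reductase, went from 1.58 to 4.61 (at least 4.25-fold), the sulfiredoxin Srxn1 from 6.02 to 7.79 and the peroxiredoxin Prdx1 from 9.24 to 10.30. All 5 are known targets of the factor NRF2, a trait looked up after they had passed, and a part of NRF2 was not tested. Among those that fell were Ncf1 (8.38 and 6.61), the p47phox subunit of the oxidant-making NADPH oxidase, and Txnip (9.74 and 8.69), an inhibitor of thioredoxin. Heme oxygenase Hmox1, another NRF2 target, was at 7.68 and 8.30 and did not pass.

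Transport of amino acids shifted between carriers, with 5 of 25 up and 6 down. Next to the arginine carriers Slc7a2 and Slc7a1, the glutamine carrier Slc1a5 went from 4.76 to 6.50 and the large neutral amino acid carrier Slc7a5 from 3.50 to 4.76. Slc7a7, which exports cationic amino acids, went from 6.75 to 4.65. The glutamine synthetase Glul fell from 9.16 to 7.23, and its second probeset from 7.92 to 6.24. Hal, which degrades histidine, went from 6.07 to 3.34, and Kmo, an enzyme of tryptophan breakdown, from 4.16 to 1.58 (at least 3.11-fold lower). Over all 155 solute carriers above the floor, 9 rose (5.81%, against 2.96% over all genes) and 21 fell (13.5%, against 6.78%). With quantile normalization applied again 14 solute carriers fell, and with intensity and gene span trends removed 11. The share that fell over all genes was lower there too, 4.71% and 4.29%.

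Among receptors that recognise microbes, decreases prevailed. Of 42 pattern recognition genes above the floor, 15 fell and 1 rose, and the median was -0.67 (-0.14 in Stat6-/- cells). All 9 Toll-like receptors above the floor had a difference below 0, and 4 fell. Tlr2, the receptor for bacterial lipoproteins, went from 7.84 to 4.96 (7.39-fold lower). The nucleic acid receptors Tlr7, Tlr9 and Tlr3 went from 7.54 to 4.99, from 6.16 to 4.70 and from 3.80 to 2.44 (at least 2.43-fold lower). Tlr4, the receptor for bacterial endotoxin, was at 6.17 and 5.46, Tlr8 at 7.76 and 7.21 and Tlr13 at 7.88 and 7.35, and these did not pass. Cd14, which hands endotoxin to Tlr4, went from 9.11 to 6.38. Ly96, which binds endotoxin with Tlr4, went from 5.49 to 4.27, and the related Ly86 from 9.70 to 8.46.

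Of the kinases behind these receptors, Irak2 went from 5.53 to 4.07 and the inhibitory Irak3 from 7.19 to 5.32, whereas the shared adaptor Myd88 was at 7.15 and 6.78. Of 19 cytosolic sensors, 6 fell. Nlrp3 and Nlrc4, which nucleate inflammasomes, went from 5.57 to 3.91 and from 4.28 to 2.92, Nod2, a sensor of bacterial cell wall, from 4.06 to 2.87, and Ddx58, the RNA sensor RIG-I, from 7.90 to 6.64. The PYHIN family genes Ifi203 (7.94 and 5.78) and Ifi205 (3.24 and 1.98) fell. Ifi205 ended under the floor, and against the floor its fall is less than 2-fold. With signals raised to the floor, 14 of the pattern recognition genes were lower. The inflammasome adaptor Pycard was the 1 sensor gene that rose, from 4.04 to 5.32. With intensity and gene span trends removed, the list had 1 higher and 12 lower and a median of -0.46.

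Surface protein families of myeloid cells held further decreases. Of 13 genes of the Ifitm and Ms4a families above the floor, 7 fell (53.8%, against 6.78% over all genes) and 0 rose. Their median was -1.15 (0.13 in Stat6-/- cells). Without the floor the median over all 26 on the array was -0.13. Ms4a6b went from 9.17 to 6.64, Ms4a6c from 9.43 to 7.74, Ms4a7 from 8.43 to 7.15, Ms4a4c from 7.11 to 5.63 and Ms4a4a from 11.03 to 9.88. These are tetraspanning proteins of the myeloid surface, encoded side by side, and members alike in sequence can share probes. The antiviral Ifitm3 (10.55 and 9.86) and Ifitm2 (9.45 and 8.73) did not pass, while Ifitm1 went from 5.13 to 3.35 and Ifitm6 from 5.55 to 1.57 (at least 8.15-fold lower).

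Of 12 genes of the Siglec and Adgre families, 0 rose and 7 fell (58.3%, against 6.78% over all genes). The families were unlike. Of 5 Adgre genes, 4 fell, with a median of -1.40, and of 7 Siglec genes, 3 fell, with a median of -0.06. Without the floor the median over all 19 on the array was -0.06. Siglece, an inhibitory receptor for sialic acid, went from 5.55 to 2.79, Siglec1, the sialoadhesin of tissue macrophages, from 9.09 to 7.54, and Cd33 from 4.12 to 2.88. Among the adhesion G protein coupled receptors, Adgre4 went from 7.62 to 3.40 and Adgre5 from 6.43 to 5.03. Of 8 receptors for antibody, 3 fell (37.5%, against 6.78% over all genes) and 0 rose. Fcgr4 went from 7.93 to 5.29, the high-affinity Fcgr1 from 9.41 to 7.65 and the cytosolic Trim21 from 5.94 to 4.78. The inhibitory Fcgr2b was at 8.45 and 7.84 and the shared signalling chain Fcer1g at 10.25 and 9.96.

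Receptors for cytokines changed unevenly. Of 44 cytokine and receptor genes, 11 fell and 4 rose, and the median was -0.40. Il6st, the shared chain gp130 of the IL-6 family, went from 7.42 to 9.51, a 4.27-fold rise, while Il6ra, the specific chain for IL-6, went from 7.03 to 5.88. Csf2ra, the GM-CSF receptor chain, went from 7.48 to 8.61. The receptor chains for IL-4 and IL-13 fell, Il4ra from 6.44 to 4.87 and Il13ra1 from 4.80 to 3.44. Il10ra (7.59 and 5.97), Il21r (5.90 and 4.52) and the interferon receptor chain Ifnar2 (8.52 and 7.18) fell too. Among ligands, Il1b (8.27 and 5.67), Il15 (5.49 and 3.46) and Ebi3 (6.35 and 4.50) fell, and 0 of 13 rose. Of 8 chemokine receptors, Cxcr4 went from 9.97 to 7.74, the fractalkine receptor Cx3cr1 from 5.84 to 4.03 and Ccrl2 from 7.28 to 5.81.

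Receptors for nucleotides and lipid mediators also moved. Of 22 genes of purine signalling, 2 rose and 7 fell, with a median of -0.60. The ADP receptor P2ry1 went from 3.21 to 5.52 and the ATP release channel Panx1 from 3.66 to 4.75. Entpd1, the enzyme CD39 that breaks down extracellular ATP, went from 8.11 to 5.09, the ATP-gated channels P2rx7 and P2rx4 from 6.57 to 5.23 and from 9.12 to 8.03, and the ADP receptor P2ry13 from 3.87 to 2.06 (at least 2.54-fold lower). Of 28 eicosanoid genes, 6 rose and 3 fell. Pla2g4a, which frees arachidonic acid, went from 4.02 to 5.94. Ptgs2, the inducible cyclooxygenase, went from 2.51 to 4.13 (at least 3.04-fold), the leukotriene C4 synthase Ltc4s from 2.72 to 3.93 and the prostacyclin receptor Ptgir from 3.46 to 5.31. Hpgds, which makes prostaglandin D2, went from 6.97 to 4.41, and the prostaglandin E2 receptor Ptger4 from 6.12 to 4.55.

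**Figure D4:**
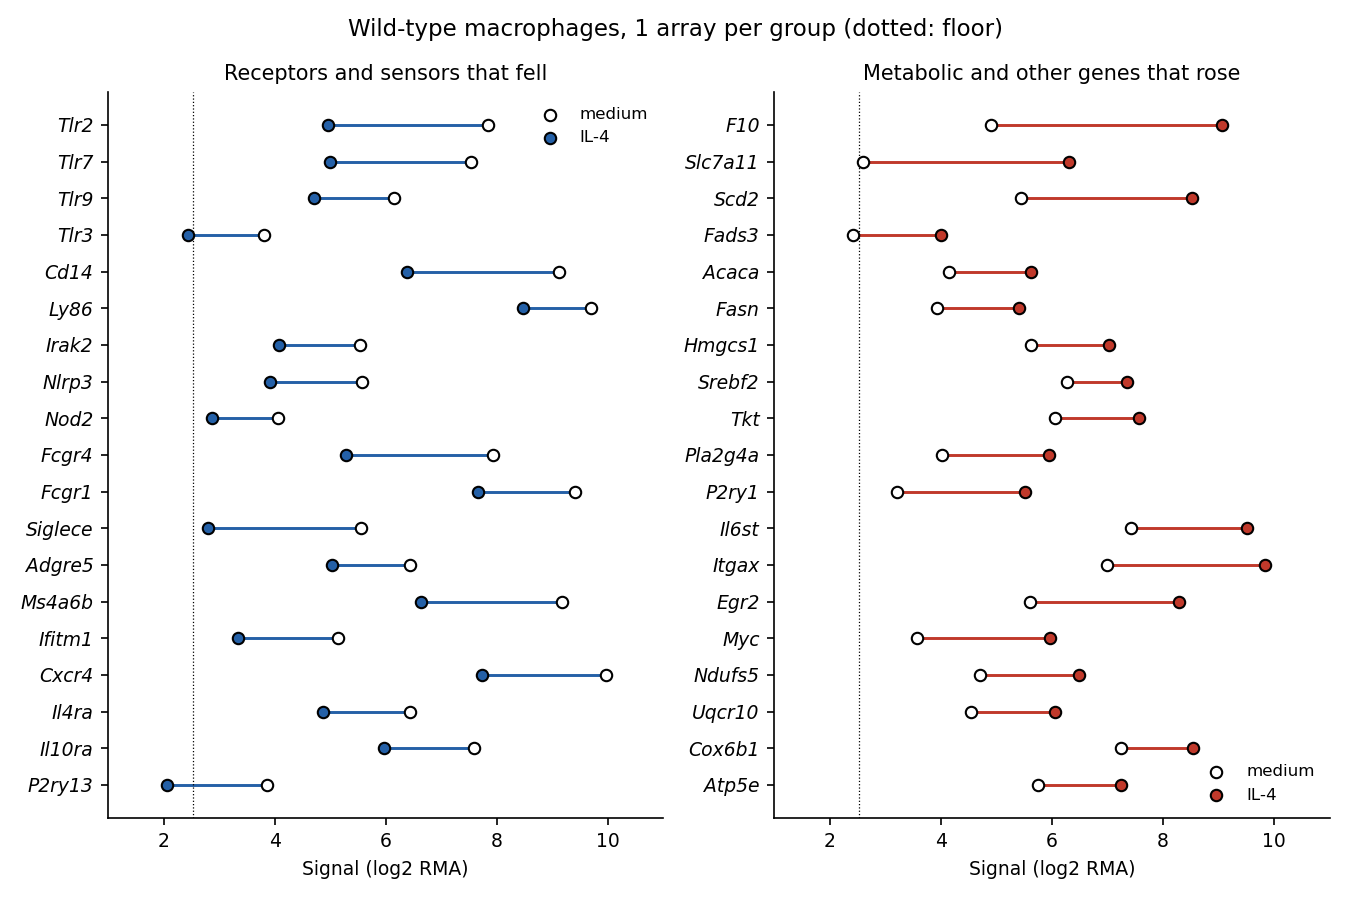
Signals of named genes in wild-type macrophages (horizontal axis, log2 RMA), open for medium and filled for IL-4, 1 array each; the dotted line is the floor of 2.52. Receptors and sensors that fell are on the left, and metabolic genes and others that rose on the right. F10 has the widest gap on the right, from 4.89 to 9.06, and Tlr2 the widest on the left, from 7.84 to 4.96.

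Ligands that signal to T cells moved in both directions. The inhibitory ligand Pdcd1lg2 rose by at least 14.5-fold, while the activating ligands Cd80 (4.69 and 3.08), Cd86 (6.35 and 4.87) and Icosl (4.65 and 2.70) fell, and so did the inhibitory Vsir (8.18 and 6.90). The related inhibitory ligand Cd274 was at 7.10 and 7.31 and did not pass. In presentation by MHC class II, the invariant chain Cd74, the peptide loader H2-DMa and the lysosomal reductase Ifi30 (8.43 and 9.56) were the 3 of 13 that rose. The antigen-binding chains H2-Aa (7.83 and 8.10), H2-Ab1 (6.63 and 7.23) and H2-Eb1 (7.06 and 7.54) did not pass, nor did their transactivator Ciita (2.82 and 3.70).

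Of 70 transcription factors, 7 rose (10%, against 2.96% over all genes) and 6 fell (8.57%, near the 6.78% over all genes). Egr2 went from 5.60 to 8.29, Myc from 3.57 to 5.95, Nfil3 from 4.56 to 6.62, Batf3 from 2.99 to 4.96 and Jund from 6.26 to 7.54, next to Bhlhe40 (3.05 and 6.77). Maf, a macrophage transcription factor, went from 8.15 to 6.13, and the hypoxia factor Hif1a from 8.56 to 6.83. The immediate early genes Fosb and Fos went from 5.82 to 3.71 and from 8.13 to 6.76. Among interferon regulatory factors, Irf4 rose (2.75 and 4.83) and Irf8 fell by 1.17 (from 7.17). Of 17 clock genes, the repressors Bhlhe40 and Nfil3 rose, and Nr1d2 (5.75 and 4.30), Nr1d1 (4.15 in medium, a difference of -1.15), Dbp (4.87 and 3.61) and Arntl (4.84 and 3.81) fell. Of these 4 decreases none reached 1.5, and under quantile normalization applied again 2 of the clock genes were lower. Klf9, a factor that binds GC boxes, went from 3.58 to 5.63.

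Of 40 autophagy genes, which serve the digestion of a cell's own parts, 7 fell (17.5%) and 0 rose. The median was -0.44, and 4 differences were above 0. The initiating kinases Ulk1 and Ulk2 went from 5.38 to 4.01 and from 5.89 to 4.55, the mitophagy receptor Bnip3 from 4.95 to 3.67 and the cargo receptor Nbr1 from 6.98 to 5.74. A second probeset of Bnip3 went from 4.38 to 3.99 and did not pass. Autophagy genes are long, with a median span of 29.8 kb, and with intensity and gene span trends removed 3 fell and the median was -0.30. Under that setting 4.29% fell over all genes. Of 193 Zfp zinc finger genes, 13 fell and 0 rose, and the median was -0.34. The share that fell, 6.74%, was near the 6.78% over all genes. With both trends removed 11 fell and the median was -0.29, where 4.29% fell over all genes. Of 27 apoptosis genes, 4 fell (14.8%, against 6.78% over all genes) and 0 rose, with a median of -0.16. The BH3-only gene Bmf fell from 5.47 to 3.45 and Casp2 from 5.79 to 4.33, and the others were Cflar, a caspase-8 inhibitor, and Apaf1, the core of the apoptosome. This split rests on the scaling, with 2 higher and 3 lower under quantile normalization applied again, and 2 and 2 with the intensity trend removed. Cdkn1b, the cell cycle inhibitor p27, fell from 6.10 to 4.57.

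Secreted proteins, adhesion proteins and growth factor receptors included several of the widest differences. F10, coagulation factor X, went from 4.89 to 9.06, a difference of 4.17, and F7, its activator, from 3.07 to 4.35. The transglutaminase subunit F13a1, which cross-links fibrin, went from 5.87 to 3.24. Among matrix proteases, the gelatinase Mmp9 went from 6.01 to 8.74, the collagenase Mmp8 from 5.01 to 6.39 and the macrophage elastase Mmp12 from 9.56 to 10.73, while the membrane-bound Mmp14 went from 8.97 to 7.71. Mmp12 rose in Stat6-/- cells also, by 1.44, so that increase was not limited to wild type. The protease inhibitors Cst7 (2.43 and 5.82, at least 9.83-fold) and Timp1 (2.43 and 3.85, at least 2.51-fold) rose. Of 10 integrin alpha chains, Itgax and Itga1 rose and Itga9, Itga4 (8.42 and 5.69) and Itga6 (7.12 and 6.04) fell. The VEGF receptors went opposite ways, Flt1 from 1.97 to 6.74 (at least 18.6-fold higher) and Kdr from 4.11 to 1.68 (at least 3.01-fold lower), and their ligand Vegfa went from 6.21 to 4.57. Bmp2, a ligand of the TGF-beta family, went from 5.51 to 2.90, and the receptors Notch1 and Notch2 from 6.70 to 5.19 and from 7.91 to 6.49.

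Several genes with wide differences belong to none of these groups. Gpc1, a heparan sulphate proteoglycan, went from 3.49 to 6.77 (9.73-fold), the receptor Tarm1 from 2.58 to 5.32 and the kinase Nek6 from 4.69 to 7.04. The calcium-binding S100a4 went from 4.61 to 6.66 and the actin-binding Tagln2 from 6.42 to 8.46. Ankrd55 went from 1.99 to 5.47 (at least 7.71-fold) and the acyltransferase Mboat2 from 1.44 to 4.59 (at least 4.19-fold). In the other direction, the arrestin-like Arrdc3 went from 7.25 to 4.42, the surface receptor Cd93 from 8.72 to 6.04 and the ubiquitin ligase Wwp1 from 9.21 to 6.60. The sphingosine-1-phosphate receptor S1pr1 went from 7.40 to 5.26 and the lysophosphatidic acid receptor Lpar6 from 8.82 to 6.78. Ago4, a small-RNA binding protein, went from 4.60 to 2.38 (at least 4.23-fold lower).

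Separate probesets of a gene mostly gave the same direction. In 613 genes both the first and the second probeset reached the floor on at least 1 array, the pairs had a Pearson correlation of 0.772 across genes, and the median gap between their differences was 0.177. Some of these pairs, such as those of Cdc5l and Dnajc3, hold the same values on both arrays and so agree by construction. They were not taken out. Of 20 genes in this set that rose, 19 had a second probeset with a difference of the same sign and 16 one past the rule. Of 49 that fell, 47 and 26 did.

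The ISRE-type motif was more frequent in genes that fell, and more so in those that fell far. It was found in 3.99% of 27025 RefSeq genes with a window and in 3.42% of 7512 genes above the floor that did not pass. It stood in 2.54% of 236 genes that rose, 9.41% of 563 that fell and 28.1% of 57 that fell by at least 2. Leaving out the list of interferon-stimulated genes, the share was 21.6%, or 11 of 51. That list has 50 entries and is not complete, so genes outside it can be interferon-stimulated too. Those 11, chosen after their values were seen, were the chemokine gene Cxcl10, the Fc receptor Fcgr4, Ifi203, the helicase Ddx60, the acute phase gene Saa3, the endotoxin-degrading enzyme Aoah, the selenium carrier Selenop, Jaml, Tmem140, Trim12c and the non-coding F630028O10Rik. Ddx60 went from 6.21 to 3.88, Aoah from 7.98 to 5.81, Saa3 from 8.83 to 6.57 and F630028O10Rik from 6.06 to 3.09.

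The STAT6-type palindrome was found in 8.01% of all genes with a window, 6.23% of those that did not pass, 10.2% of those that rose and 14.3% (4 of 28) of those that rose by at least 2. It stood in 6.93% of those that fell, 8.77% (5 of 57) of those that fell by at least 2 and 27.8% (5 of 18) of interferon-stimulated genes that fell, the highest share among these sets. The sterol element was found in 1.44% of all genes, in 2 of 31 cholesterol genes that could pass (6.45%) and in 1 of the 8 that rose. Both strands were searched. None of the matches printed overlaps a match of another of these motifs. A match is a description of letters in the window and does not show binding, and 15563 genes of the array have a window.

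**Figure D5:**
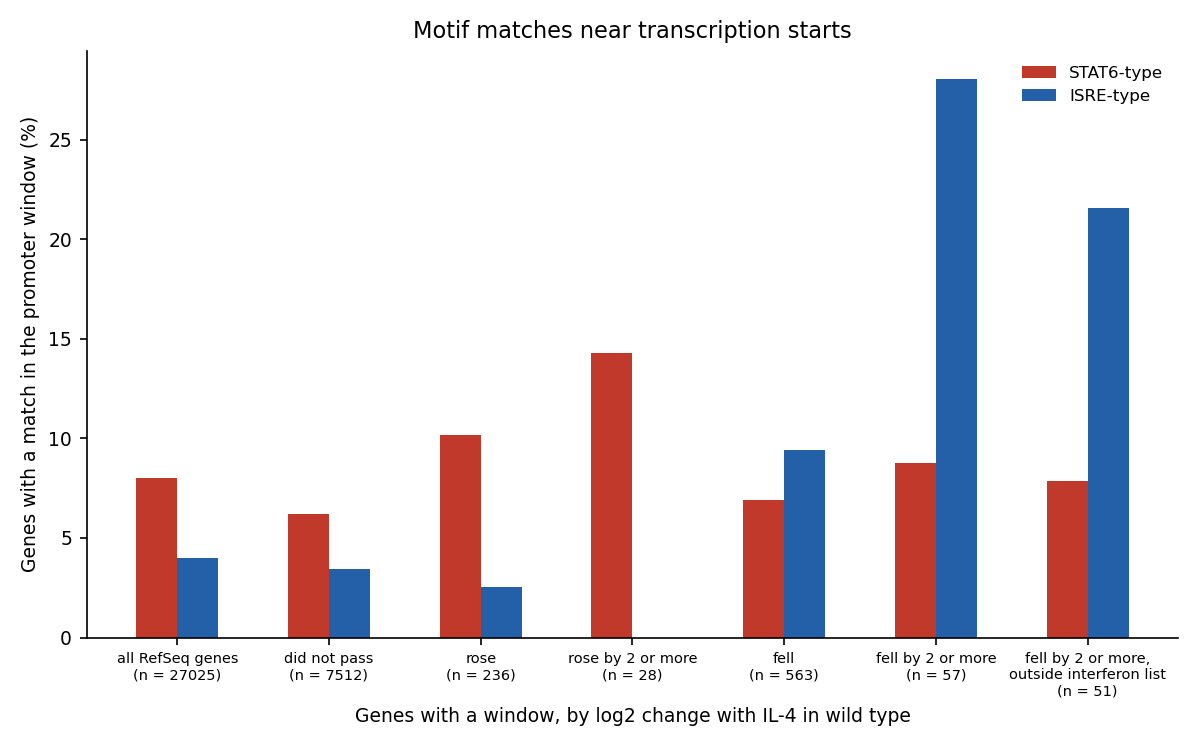
Percentage of genes (vertical axis, from 0) whose promoter window holds a STAT6-type (red) or ISRE-type (blue) match, for sets of genes by their log2 change with IL-4 in wild type (horizontal axis, n is the number of genes with a window). The ISRE-type share is 3.42% in genes that did not pass, 9.41% in genes that fell and 28.1% in genes that fell by 2 or more.

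The array reads the transcripts of microRNA genes and not the processed arms. The mature sequences, taken from RefSeq (GRCm38.p6), therefore only name what these genes encode. Of 296 microRNA genes, 63 reached the floor, 3 fell and 1 rose, and the median was 0.06. Over all genes 6.78% fell and 2.96% rose, and in the dimmest of 4 signal bins 2.41% and 2.22%. The called microRNA genes had a median mean signal of 3.57, which lies in the next bin, where 7.51% fell and 3.11% rose. The microRNA counts are too small to be set apart from these shares. Mir142, known from blood cells, went from 4.20 to 2.47 (at least 3.20-fold lower). Mir27a (5.59 and 4.31) and Mir7-1 (4.16 and 2.96) fell and Mir212 (2.92 and 4.23) rose, all 3 chosen after their values were seen. Mir23a (5.17 and 4.44) and Mir24-2 (4.44 and 4.19), encoded beside Mir27a, did not pass. The seeds, bases 2 to 8, stand in capitals, and no seed is shared among them.
mmu-miR-142a-5p: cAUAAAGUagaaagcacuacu
mmu-miR-142a-3p: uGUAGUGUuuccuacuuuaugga
mmu-miR-27a-3p: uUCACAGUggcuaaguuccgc
mmu-miR-7a-5p: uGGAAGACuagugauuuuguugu
mmu-miR-212-3p: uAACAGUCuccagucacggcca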

How the data were processed

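The deposited values are log2 signals, 1 for each probeset on each array, made with RMA in Affymetrix Expression Console per the submitters' processing notes. RMA corrects background, equalises the distributions of the arrays and summarises probes, and it pulls low signals together, so that changes of weak genes are understated. Versions and genome build: not given in the sources used here. That the base is 2 was read from how far the values range. Of 35557 probesets, 21789 had 1 gene symbol in the platform annotation, 1621 several and 12147 were not named there. Of the former, 21698 were found by Entrez identifier in RefSeq's gene table (GRCm38.p6), which also gave gene spans, and 0 symbols changed. There were 999 genes with several probesets.

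The 4 arrays formed 4 groups of 1, so no test was run. The 59 gene lists (1789 of 1940 entries of these and of 10 marker lists on the array, 20 under another symbol), the rules and the genes described were chosen with earlier results of these data known. Named were the 30 largest differences each way measured on both arrays, the 25 largest bounds each way, in each list role up to 6 members past the rule in each direction and up to 4 of highest signal that did not pass, Stat6, Il4ra, the MHC class II list and the genes whose promoters are printed. Motifs were searched on both strands of RefSeq windows of 300 bases; another motif is not reported here. The rule of size was tested on simulated data for 19938 genes: of 50 genes each changed by 2, -2, 1.5 and -1.5, it recovered 50, 50, 49 and 50, and 0 unchanged genes were called. The simulated noise had the SD of 0.21 of the olfactory receptor genes, most of them under the floor, at every signal. A size of 1 is far outside such noise, so these counts check the steps and give no error rate for the real arrays. Alternatives were another normalization, floor, size or probeset rule and removal of lowess trends (fraction 0.3). Python 3.11.15, numpy 2.4.6, pandas 2.3.3, statsmodels 0.14.6 and matplotlib 3.10.9 were used.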

Additional observations from a re-analysis of the deposited data

Results flagged for a closer look

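Gm10602, a predicted gene chosen by a script after its values were known, moved in opposite directions in the genotypes. In wild type it went from 2.34, under the floor, to 3.53 with IL-4, a difference of 1.19 (at least 2.01-fold higher). In Stat6-/- cells it went from 3.71 to 2.52, a difference of -1.18. With 1 array per group this difference between the genotypes was not tested.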

How the results depend on the processing

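A size of at least 1.5 gave 108 higher and 224 lower genes, and a size of at least 2 gave 46 and 83. With intensity and gene span trends removed, an alternative chosen after seeing the data, there were 394 higher and 441 lower (47.2% of calls higher), which kept 283 of the 304 increases and 417 of the 697 decreases, and the cause was not tested. A floor at the 75th percentile left 213 higher and 550 lower of 5503 genes, since fewer genes could pass, and signals raised to the floor gave 278 and 674. Shifting the arrays to a common median gave 304 and 700, no floor 307 and 697, and the mean of all probesets 303 and 679. Of 770 named genes, removal of both trends took 48 out of the calls and added 13. No paired analysis was possible because each group has 1 array and the replicate numbers follow accession order alone. Leaving out an array was not possible for the same reason. Low signals limit what can be seen: of genes split into 4 bins by signal, 2.41% of the dimmest fell, against 9.10% of the brightest.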
